A study of Arabidopsis thaliana with 8 samples.

Results

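The comparison described here is the effect of abscisic acid (ABA) averaged over 2 genotypes of Arabidopsis thaliana, and it uses 8 of the 8 arrays of the study: 4 from plants sprayed with ABA against 4 from mock-sprayed plants. The genotypes were the Columbia wild type and the mutant abh1, altered in the gene for the bigger protein of the complex that binds the cap of messenger RNA in the nucleus; the labels do not give its allele. Plants of 4 weeks were sprayed with water, alone or with 50 µM ABA, and green tissue, called leaves in the labels, was taken after 4 h. Every array received RNA pooled from 3 biological replicates. Each of the 4 combinations of genotype and treatment had 2 arrays, numbered 1 and 2, so that an ABA or a mock set of 4 arrays held both genotypes and both numbers. Levels are given as MAS5 signal, the linear intensity that the Affymetrix software reports for a probe set. Differences are on the scale of log2(signal + 10) and are written as ABA minus mock with their standard error (SE).

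ABA is the hormone that plants accumulate when water is short. It is bound by soluble receptors that then inhibit a class of protein phosphatases, which releases kinases that activate transcription factors of the bZIP type. In leaves it closes stomata, slows growth and switches on genes for protective proteins such as dehydrins and late embryogenesis abundant (LEA) proteins. Genes of the receptors, the phosphatases, the bZIP factors of the core pathway, ABA synthesis and osmolyte synthesis were listed for this work but are not analysed here.

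Arrays numbered 1 had median signals between 131 and 160, and arrays numbered 2 between 180 and 216; the replicate number is a term of the fit. Across probe sets, the log2 signals of wild-type ABA replicate 1 had the lowest mean correlation with the other 7 arrays, 0.887, against 0.909 to 0.933 for the rest. Wild-type ABA replicate 2, with a mean of 0.916, was closest to wild-type mock replicate 2 (0.958) and least close to wild-type ABA replicate 1 (0.859). Leaving out wild-type ABA replicate 2 moved the number of calls most, so the counts over most gene lists are given with and without it. Its omission raised the number of calls, while the omission of any other single array lowered it. List counts without those other arrays are not given. Of the leaf markers, RCA, which activates Rubisco, had signals of 13882 to 20232 on the 8 arrays and PRK, a Calvin cycle kinase, 6992 to 14896. Of the 9 leaf markers 2 had a named probe set, while the 3 root, 3 flower, 3 seed and 1 pollen markers had none. Arrays come from whole tissue, where fewer cells of a type and less RNA per cell cannot be told apart, and as nothing says how far the arrays are separate biological samples, p-values speak only of array-to-array spread, technical or not.

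ABA raised 359 probe sets and lowered 146, out of 13648 tested (limma, adjusted p under 0.05). The called share was 3.70% in either direction, 2.63% raised and 1.07% lowered. The rises were also larger: 194 of the 359 were by at least 1 on the log2 scale, 42 by at least 2 and 18 by at least 3, while 59 of the 146 falls reached 1, 7 reached 2 and 0 reached 3. The median was 1.06 over the raised and -0.92 over the lowered probe sets, beside a median of -0.08 over all tested. In 261 of the raised probe sets the 4 ABA arrays all lay above the 4 mock arrays, and in 73 of the lowered ones they all lay below. Over all 13648 the shares without overlap were 3.88% upward and 2.89% downward. Of the raised probe sets 34 had a mean mock signal under the filter of 115.5, so they were tested because ABA made them bright. As a background for the gene lists below, 24.3% of all probe sets had an unadjusted p under 0.05 and 41.4% were above 0. Without wild-type ABA replicate 2, 25.4% were called, 8.65% raised and 16.7% lowered. Exactly 1 gene is named for 155 raised and 67 lowered probe sets, and in 112 and 37 of these the ABA and mock arrays did not overlap. The genes described below are mainly 32 of those without overlap, taken by rank of p and of size. Lack of overlap in the 32 was thus a condition of their choice and not a result.

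**Figure D1:**
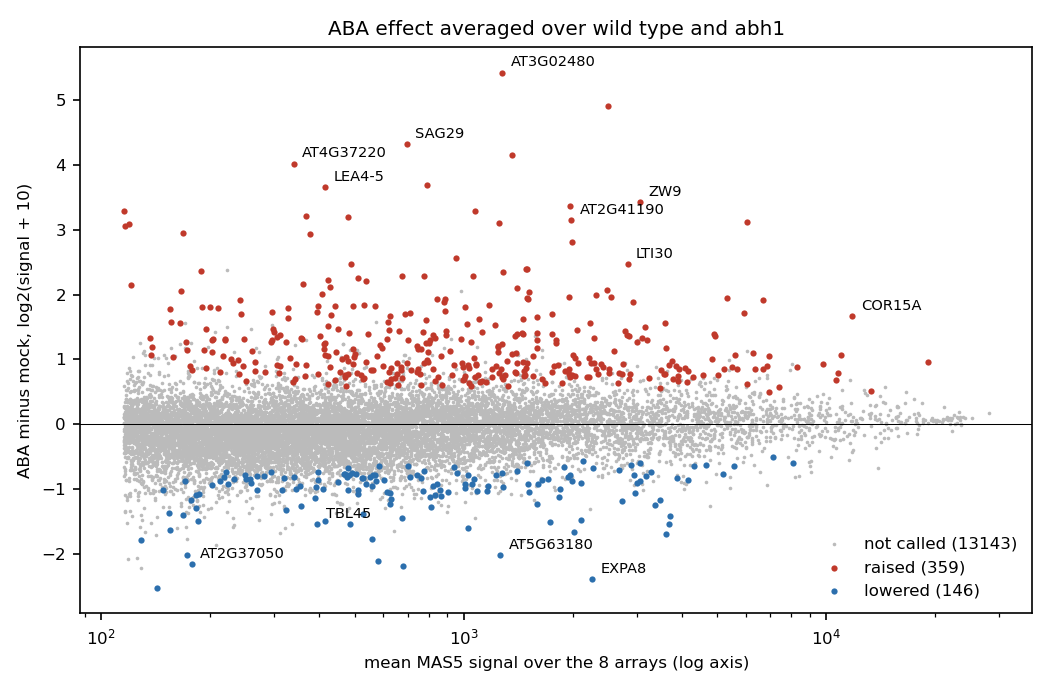
Each point is 1 of the 13648 probe sets, with its mean signal over the 8 arrays on a log axis and its averaged ABA effect on the log2 scale; red points were raised (359) and blue points lowered (146). Rises reach 5.42 and the deepest called fall is -2.52.

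The gene with the smallest p was ZW9 (AT1G58270), which encodes a protein of the TRAF-like family. Its mock signals were 857 and 616 in wild type and 410 and 261 in abh1, on arrays 1 and 2 in that order. Its ABA signals were 8955 and 4838 in wild type and 4345 and 4284 in abh1. Every ABA array was thus several-fold above every mock array, although wild-type mock plants had more ZW9 signal than abh1 mock plants. The averaged rise was 3.42 ± 0.18 (SE), 10.7-fold on the offset scale, with an adjusted p of 0.000202 by limma and 0.00487 with no replicate block.

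The dehydrin LTI30 (AT3G50970) came next, a protein that protects membranes in dehydrated or chilled cells. It had 1111 and 750 in wild-type mock and 731 and 763 in abh1 mock, against 6239 and 2685 in wild-type ABA and 5703 and 4678 in abh1 ABA. The mock arrays were close together and the lowest ABA array was wild-type replicate 2. The rise was 2.46 ± 0.22 (adjusted p = 0.00261), and 2.72 without that array. PUB19 (AT1G60190), a ubiquitin ligase of the plant U-box family that acts as a negative regulator of ABA and drought responses, had mock signals of 496, 575, 373 and 239 and ABA signals of 5592, 1952, 1381 and 1383, in the order wild type 1 and 2, abh1 1 and 2. The groups did not overlap, and a single array, wild-type ABA replicate 1, was far above the other 3. Its rise was 2.39 ± 0.26 (adjusted p = 0.00363).

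Among the other raised genes of smallest p were AT2G41190, AT1G61890, AT2G47780 and AT5G22460. In the same order of arrays, AT2G41190, of the amino acid transporter family, had 227, 437, 558 and 306 in mock and 5246, 1701, 4451 and 2934 in ABA. That is a rise of 3.15 ± 0.33 (adjusted p = 0.00323), the smallest in wild-type replicate 2. AT1G61890, a MATE efflux carrier, had 1761, 738, 831 and 477 in mock and 6503, 3289, 2379 and 2600 in ABA, a rise of 1.99 ± 0.21. Here wild-type mock replicate 1 was the highest mock array and still lay below every ABA array. AT2G47780, of the rubber elongation factor family found on lipid droplets, had 62.9, 121, 64.2 and 73.0 in mock and 1585, 465, 781 and 689 in ABA, a rise of 3.20 ± 0.35 (adjusted p = 0.00345). AT5G22460, an alpha/beta-hydrolase, had 135, 201, 74.4 and 177 in mock and 595, 657, 618 and 913 in ABA, a rise of 2.23 ± 0.22. WSD1 (AT5G37300), a wax ester synthase, was not among the 32 and was chosen after its values were seen; it had 259, 243, 191 and 146 in mock and 1695, 501, 1364 and 1001 in ABA, a rise of 2.29 ± 0.29 (adjusted p = 0.00576). In AT2G47780 and WSD1 the lowest ABA array was again wild-type replicate 2, and in AT5G22460 it was wild-type replicate 1.

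A pair here is an ABA and a mock array of 1 genotype and number. AT1G16850 was the most even over the 4 pairs: it rose by 1.91 and 1.73 in wild type and by 1.85 and 1.82 in abh1, from 162 to 316 in mock to 562 to 1211 in ABA. AT1G49450, a WD40 repeat protein, rose by 1.57 and 2.23 in wild type and by 2.19 and 2.22 in abh1, and its highest ABA array was wild-type replicate 2. AT4G02360 rose by 2.12 ± 0.23, with 2.56 and 2.38 in wild type and 1.39 and 2.14 in abh1. AT4G30460, a glycine-rich protein, rose by 1.82 ± 0.19, with 2.00 and 1.30 in wild type and 1.79 and 2.17 in abh1.

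**Figure D2:**
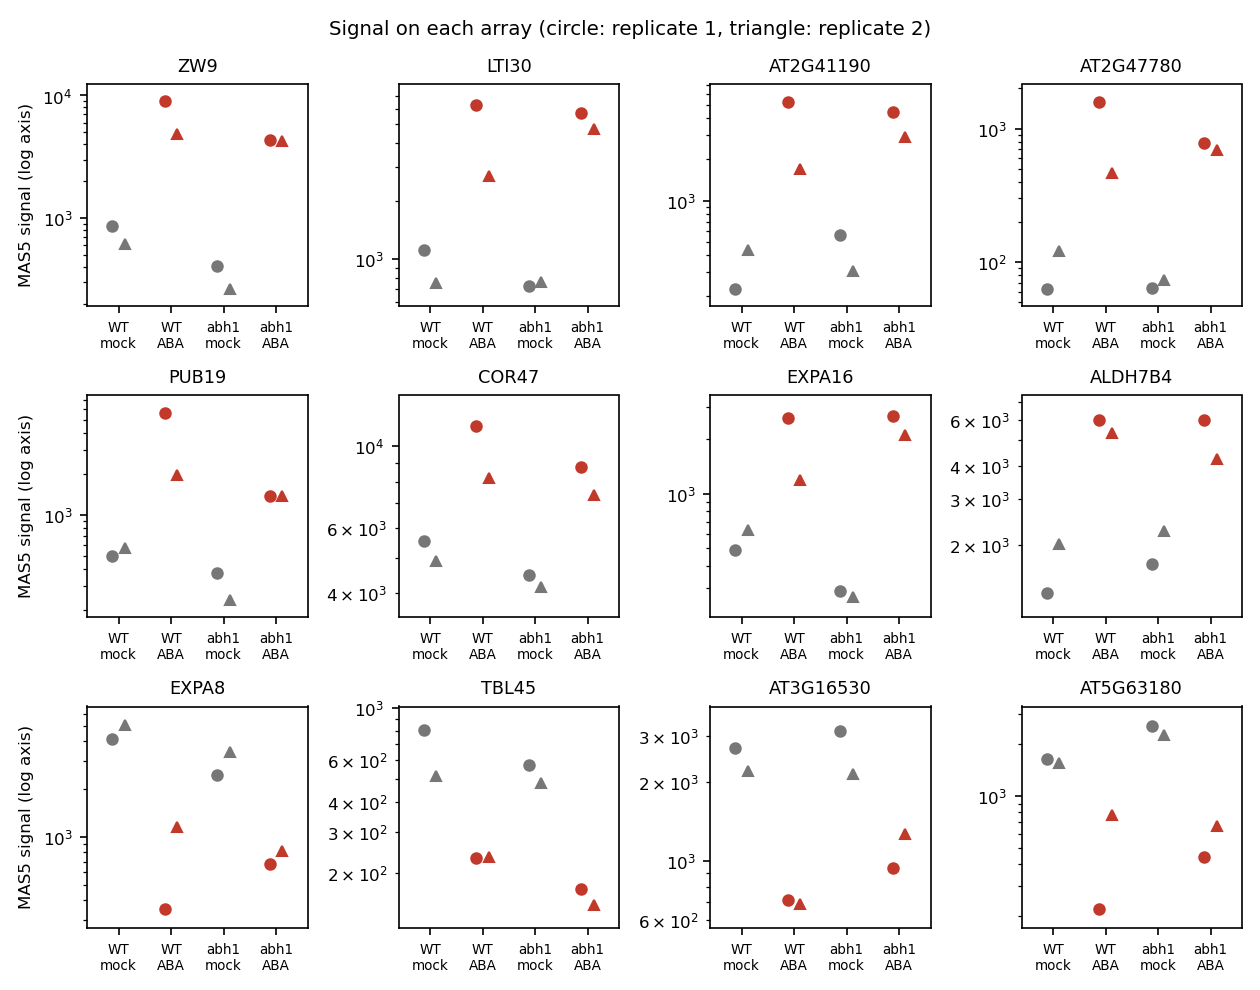
MAS5 signal on a log axis for 12 genes on each of the 8 arrays, grey for mock and red for ABA, circles for replicate 1 and triangles for replicate 2. In all 12 genes the 4 ABA arrays lie on one side of the 4 mock arrays, and 8 genes are raised and 4 lowered.

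Some of the named genes had a mean mock signal under the filter and were tested only because ABA made them bright, so a large rise was needed for them to be tested and their values are a description. AT1G49450 and AT2G47780 above are of this kind. AT3G02480, a LEA family gene, had mock signals of 4.32, 30.6, 51.2 and 9.55 in the array order above, and ABA signals of 7927, 498, 1245 and 449. The first and the last of the mock values lay under the 10th percentile of their arrays, so the rise of 5.42 ± 0.74 depends on the offset of 10 and no fold is given. It was 9.11 in wild-type replicate 1 and 3.65 to 4.55 in the other 3 pairs. SAG29 (AT5G13170), a SWEET family sugar transporter linked to senescence, had 4.69, 53.4, 100 and 103 in mock and 2472, 542, 1250 and 1042 in ABA, a rise of 4.32 ± 0.62. Its dimmest mock array, wild-type replicate 1, lay under the 10th percentile and sets the high end of the pair differences at 7.40, and the other 3 lay between 3.12 and 3.52. AT4G37220, of the family of cold acclimation proteins named WCOR413, rose by 4.02 ± 0.55 from mock signals of 13.3, 91.5, 10.1 and 19.0 to 1364, 305, 425 and 492.

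The same holds for the next 5 genes. LEA4-5 (AT5G06760) was at 28.3, 37.0, 76.6 and 17.9 in mock and 1902, 201, 661 and 400 in ABA, a rise of 3.66 ± 0.47. AT2G21820, a seed maturation protein, rose by 2.94 ± 0.31 and AT3G13672, a protein listed with the synonym SINA2, by 3.21 ± 0.39, from mock means of 30.2 and 54.2 to ABA means of 306 and 680. AT1G24600 rose by 3.09 ± 0.33 and AT3G57010, of the strictosidine synthase-like family, by 3.29 ± 0.46. Their mock values fell under the 10th percentile on 1 and on 3 of the 4 mock arrays, so these sizes also rest on the offset. All 5 genes had every ABA array above every mock array, as the choice required, and wild-type ABA replicate 1 was the highest array in each.

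The list of LEA, dehydrin and cold-regulated (COR) effectors had every tested member raised. Of its 22 entries 7 had a named probe set and 6 passed the signal filter. Of these 6, 6 were raised, beside 2.63% of all probe sets, with a median of 2.06 beside -0.08 for all. Without wild-type ABA replicate 2 the same 6 were raised, beside 8.65% of all probe sets. AT3G02480 and LEA4-5 passed the filter through their ABA arrays, so the count over the 6 supports nothing by itself. The member left out by the filter was AtLEA4-1, with signals of 12.6 to 90.9. COR47, an abundant dehydrin, had 5526, 4881, 4478 and 4168 in mock and 11322, 8209, 8793 and 7396 in ABA, a rise of 0.89 ± 0.10 (adjusted p = 0.00451). Its change was small and even, between 0.75 and 1.03 in the 4 pairs. COR15A, which protects chloroplast membranes in the cold, rose by 1.66 ± 0.22, and its neighbour COR15B by 0.75 ± 0.16 (adjusted p = 0.0405). COR15B was the only one of the 6 whose arrays overlapped: its mock signals were 5690, 4314, 2590 and 1209 and its ABA signals 10670, 4793, 4422 and 2778. With no replicate block COR15A and COR15B did not pass (adjusted p = 0.065 and 0.456), and neither did LEA4-5 (0.0527).

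Among lowered genes with 1 name, EXPA8 and TBL45 are described first. EXPA8 (AT2G40610), an expansin, a protein that loosens the wall so that a cell can grow, had 4152, 5053, 2475 and 3432 in mock and 350, 1165, 680 and 815 in ABA. The highest ABA array was still below the lowest mock array, and the change was -2.39 ± 0.27 (adjusted p = 0.0042). TBL45 (AT2G30010), of the trichome birefringence-like family that acetylates wall polysaccharides, had the smallest p of the lowered genes with 1 name. It was at 808, 513, 571 and 483 in mock and at 233, 235, 171 and 147 in ABA, a change of -1.54 ± 0.16 (adjusted p = 0.00301). AT5G63180, of the pectin lyase-like family, had 1643, 1550, 2537 and 2254 in mock and 221, 773, 444 and 664 in ABA, a change of -2.02 ± 0.29. Wild-type replicate 2 again had the highest ABA signal and the smallest pair difference, at -0.99 against -1.75 to -2.84 in the other pairs.

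Among the other lowered genes, AT3G16530, a lectin-like protein, changed by -1.51 ± 0.19, from 2159 to 3137 in mock to 690 to 1277 in ABA. ATSPS4F, a sucrose phosphate synthase that makes sucrose in leaves, changed by -2.10 ± 0.44 (adjusted p = 0.0371). Its mock signals were 607, 849, 841 and 1341 and its ABA signals 84.9, 578, 211 and 135, so that wild-type ABA replicate 2 nearly reached the lowest mock array. Without that array the change was -2.68 (adjusted p = 0.000141), but with any other single array left out it did not pass (adjusted p = 0.0703 to 0.159), nor with no replicate block (0.162). AT2G37050, of the leucine-rich repeat kinase family, changed by -2.15 ± 0.41, with -3.51 and -0.67 in the wild-type pairs and -2.84 and -1.58 in abh1. AT5G55580, listed as mTERF9, a relative of mitochondrial transcription termination factors, changed by -1.78 ± 0.31, and AT1G06830, a glutaredoxin, by -1.49 ± 0.24. Smaller falls were those of AT3G58610, an enzyme of branched-chain amino acid synthesis (-0.64 ± 0.11), AT4G17390, a ribosomal protein (-0.70 ± 0.12), AT2G29320, a short-chain dehydrogenase (-0.92 ± 0.13), AT1G20070 (-1.02 ± 0.13) and AT5G59080 (-0.85 ± 0.12). The 4 pair differences of AT3G58610 ran from -0.88 to -0.56, those of AT4G17390 from -0.92 to -0.43 and those of AT2G29320 from -1.14 to -0.67. After median centring AT3G58610 and AT4G17390 no longer passed (adjusted p = 0.0799 and 0.0611). AT2G37050 and AT5G55580 had a mean ABA signal under the filter, and so were tested through their mock arrays.

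AT1G22690, known as the guard cell marker GC1, was lowered too. It had 1554, 997, 1871 and 1104 in mock and 868, 431, 910 and 707 in ABA, a change of -0.92 ± 0.14 (adjusted p = 0.0125, and 0.29 with no replicate block). Within each genotype and number the ABA array was the lower one, and the arrays numbered 2 were lower than those numbered 1 in every group. The other guard cell marker with a probe set, FMA, which drives guard cell formation, was at -0.35 ± 0.17 and did not pass (adjusted p = 0.251). Of the 4 guard cell markers 2 were measured; the part of guard cell number in these values was not tested.

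Some lowered genes outside the 32, chosen after their values were seen, serve chloroplasts or ribosomes. CAF1, which splices introns of chloroplast transcripts, changed by -1.08 ± 0.22 (adjusted p = 0.033), from 186, 356, 180 and 274 in mock to 69.8, 210, 85.0 and 104 in ABA. FUG1, a chloroplast translation initiation factor, changed by -0.74 ± 0.15, from 3548 to 4607 to 1713 to 3624, and the chaperonin Cpn60beta4 by -0.75 ± 0.16. AT5G41190, listed as NOB1, which trims ribosomal RNA in yeast, changed by -0.79 ± 0.16. In CAF1 and FUG1 the highest ABA array was wild-type replicate 2, which overlapped the mock arrays.

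**Figure D3:**
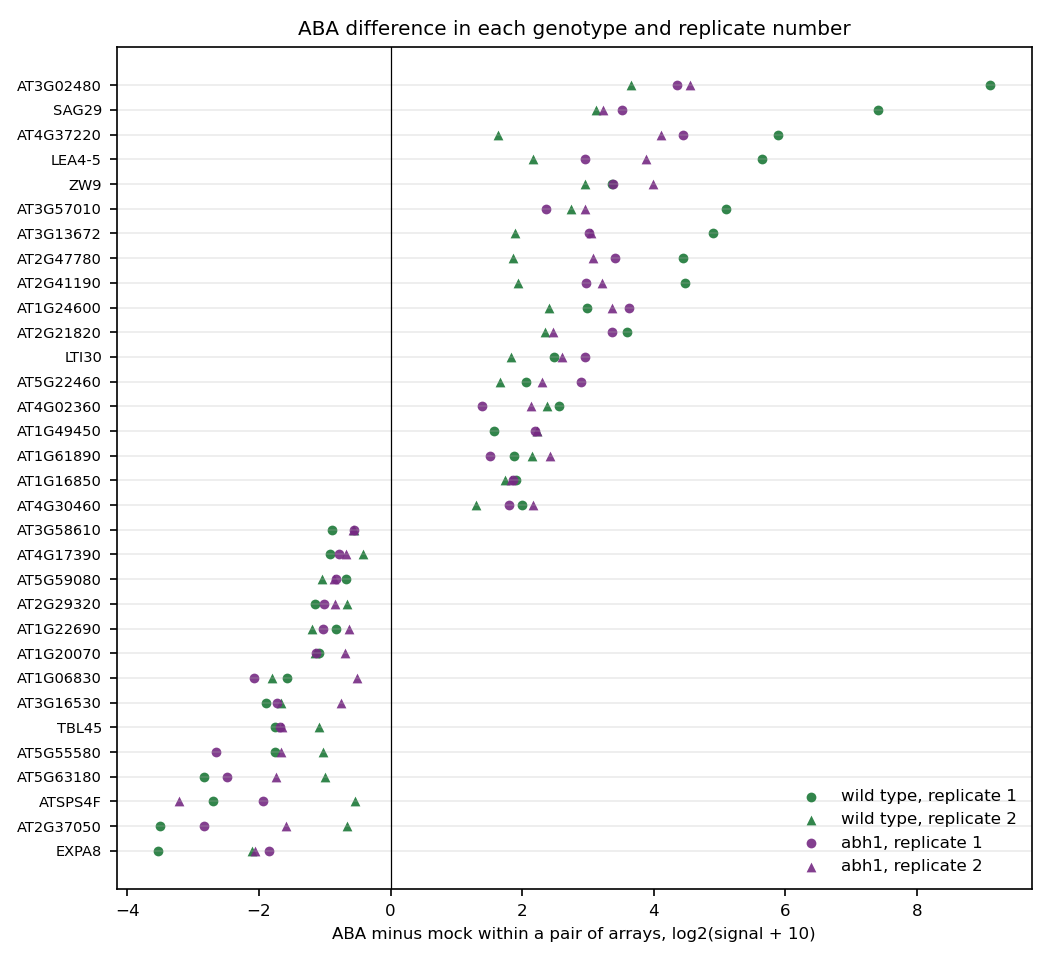
ABA minus mock on the log2 scale within each of the 4 pairs of arrays for the 32 named genes, green for wild type and purple for abh1, circles for replicate 1 and triangles for replicate 2. All 128 differences keep the sign of the average, which the choice of genes without overlap of ABA and mock arrays made certain. The wild-type replicate 2 triangle is often the closest to 0.

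Expansins moved both ways. Of 18 genes with a probe set 10 passed the filter, with a median of -0.21. Of these, 3 were raised, 1 was lowered and 6 were not called, beside 2.63% raised and 1.07% lowered over all probe sets. With wild-type ABA replicate 2 left out, 4 expansins were raised and 2 lowered, beside 8.65% and 16.7% of all probe sets. EXPA16 had 487, 632, 292 and 268 in mock and 2615, 1188, 2697 and 2116 in ABA, a rise of 2.35 ± 0.32 (adjusted p = 0.00745). Its rise was 0.90 in wild-type replicate 2 and 2.40 to 3.17 in the other pairs. EXLA1 and EXLB1, expansin-like proteins, rose by 1.93 ± 0.25 and 1.30 ± 0.15, and EXPA8 fell as above. Of the 6 without a call, EXPB3 was at -0.65, EXPA9 at -0.58 and EXPA4 at 0.51. Other wall genes, named after their values were seen, also went both ways: TBL37 and TBL38 rose by 0.95 ± 0.21 and 1.23 ± 0.22, and the endoglucanase GH9C2 changed by -1.03 ± 0.20.

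Among sugar transporters 8 of 15 genes passed the filter, all of them SWEETs, which let sugars across membranes along their gradient. SAG29 and SWEET4 were raised, beside 2.63% of all probe sets, and the other 6 lay between -0.20 and 0.49. SAG29 was tested only because ABA made it bright. Of the 8, 3 were raised without wild-type ABA replicate 2, beside 8.65% of all probe sets. SWEET4 had 286, 292, 346 and 267 in mock and 1654, 407, 1078 and 637 in ABA, a rise of 1.45 ± 0.28 (adjusted p = 0.0308, and 0.208 with no replicate block). SWEET11, which loads sucrose for export from leaves and was the brightest of the 8, was at 5177 to 9788 in mock and 4025 to 9145 in ABA, a difference of -0.20 ± 0.12. Of 8 aldehyde dehydrogenases 1 was raised: ALDH7B4, a detoxifying enzyme induced by loss of turgor, at 1325, 2025, 1695 and 2271 in mock and 5967, 5323, 5948 and 4253 in ABA (1.56 ± 0.19, adjusted p = 0.00524). Leaving out wild-type ABA replicate 2 gave 1 raised and 2 lowered aldehyde dehydrogenases, beside 8.65% and 16.7% of all probe sets. With 8 genes these counts are too few to compare with the shares. The mock arrays of ALDH7B4 numbered 2 were brighter than those numbered 1 and the ABA arrays numbered 2 were dimmer. AT4G33150, listed as the lysine-breaking enzyme LKR/SDH and chosen after its values were seen, rose by 1.68 ± 0.23.

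Of 10 autophagy genes 1 was raised, and 6 without wild-type ABA replicate 2, beside 2.63% and 8.65% of all probe sets. ATG8 proteins are joined to lipid on the growing autophagosome membrane. ATG8H was raised by 1.06 ± 0.21 (adjusted p = 0.0308), and of the other 9 measured ATG8E was at 0.73 (0.0676), APG8A at 0.65 (0.0856) and ATG3 at -0.01. In total 9 of 10 were above 0, beside 41.4% of all probe sets, with a median of 0.30. ATG8H did not pass with no replicate block (adjusted p = 0.441). ATG8E and APG8A were among the 6 (adjusted p = 0.00377 and 0.00997). Of 11 U-box and RING ligases 1, PUB19, was raised, and without wild-type ABA replicate 2 there were 3 raised and 1 lowered; the related PUB26 was at 0.58 and PUB25 at 0.54 (adjusted p = 0.0652 and 0.116). UBC32, an ubiquitin-conjugating enzyme of the endoplasmic reticulum named after its values were seen, rose by 0.95 ± 0.17.

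Numbers of regulators measured were too small to set against the 3.70% called over all probe sets. Of 6 bZIP factors measured BZIP53, which activates amino acid breakdown genes in starved cells, rose by 0.94 ± 0.15 (adjusted p = 0.0154), and BZIP60, of the unfolded protein response, was at 0.64 (0.0784). HIS1-3, a drought-inducible linker histone, rose by 0.61 ± 0.13 (adjusted p = 0.0412), from 493 to 551 in mock to 718 to 916 in ABA, and the other 5 histone genes lay between -0.40 and 0.17. Of 5 WRKY factors 0 were called by limma, with 3 at an unadjusted p under 0.05, beside 24.3% of all. Without wild-type ABA replicate 2, 2 WRKY factors were lowered, and 2 bZIP factors were raised and 2 lowered. In that fit 8.65% of all probe sets were raised and 16.7% lowered. Among 4 auxin response genes WES1, which joins auxin to amino acids, was raised by 0.96 ± 0.21 (adjusted p = 0.0435). The clock gene GI was at -0.76 (adjusted p = 0.212) and at -1.15 (0.0086) with the second wild-type ABA array dropped; that array read 1264 and the other ABA arrays 136 to 422.

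In enzyme families that modify small molecules, the calls were 1 or 0 in each direction, which at these sizes is near the 3.70% of all probe sets or too few to compare. Of 23 UDP-glycosyltransferases 0 were raised and 1 was lowered, UGT72E1, which adds glucose to lignin precursors (-1.39 ± 0.25, adjusted p = 0.0222). The median over the 23 was -0.03. Of 11 cytochromes P450 CYP71B26 was raised (0.77 ± 0.13) and of 7 glutathione S-transferases GSTU16 (0.69 ± 0.14). The median was -0.29 over the P450 genes and 0.13 over the transferases. Without wild-type ABA replicate 2, 1 glycosyltransferase was raised and 2 were lowered, 1 P450 gene was raised and 4 were lowered, and 2 transferases were raised. In that fit 8.65% of all probe sets were raised and 16.7% lowered, and these counts are too few to compare with the shares. With no replicate block UGT72E1, CYP71B26 and GSTU16 did not pass (adjusted p = 0.169, 0.148 and 0.322). A gene outside these lists, CHI, listed as a chitinase, rose by 1.30 ± 0.23, with mock and ABA arrays that overlapped.

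Of 8 light harvesting and photosystem genes of the nucleus 0 were called by limma, with or without wild-type ABA replicate 2, which at 3.70% called over all probe sets says little. Of the 8, 0 had an unadjusted p under 0.05, beside 24.3% of all, and their differences lay between -0.10 and 0.15. Of 39 chloroplast-encoded genes 0 were called by limma. Of them 5 had an unadjusted p under 0.05, beside 24.3% of all, and 32 were above 0, beside 41.4% of all. Without wild-type ABA replicate 2, 8 were raised and 1 was lowered, beside 8.65% and 16.7% of all probe sets. The median of the 39 was 0.26, which was -0.07 within wild type and 0.54 within abh1. It was 0.46 over the arrays numbered 1 and 0.07 over those numbered 2. For psbH the abh1 mock signals were 413 on replicate 1 and 10793 on replicate 2, while the other 6 arrays had 5284 to 11457, so its average of 0.83 ± 0.67 rests on 1 mock array.

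**Figure D4:**
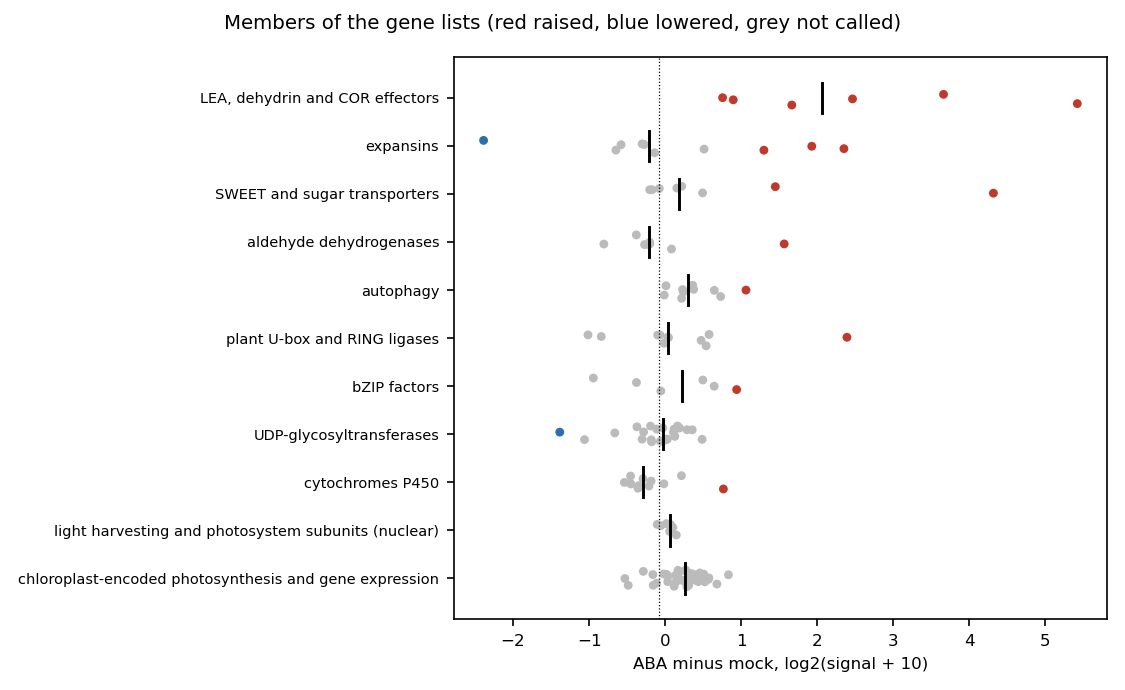
Averaged ABA effect on the log2 scale for each measured member of 11 gene lists, red for raised, blue for lowered and grey for not called; the bar marks the median of a list and the dotted line the median of all probe sets (-0.08). The 6 effectors are all red, beside 2.63% raised over all probe sets. Expansins lie on both sides, and the 8 nuclear photosynthesis genes lie close to 0.

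The averaged effect was made up of unequal parts. Over the 359 raised probe sets the median difference was 1.30 in wild-type replicate 1, 0.75 in wild-type replicate 2, 1.12 in abh1 replicate 1 and 1.04 in abh1 replicate 2. Over the 146 lowered ones it was -1.25, -0.60, -0.90 and -0.85. The smallest of the 4 differences lay in wild-type replicate 2 for 288 of the 505, or 57.0%. All 505 had 4 differences of the same sign, which the choice by a small p favours. These values chose the probe sets and are a description only.

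A test of the difference between the genotypes' ABA effects called 0 probe sets by limma, with 249 (1.82%) at an unadjusted p under 0.05, and 19 of the 505 (3.76%) were among these. The same test between the arrays numbered 1 and 2 also called 0 by limma. It had 497 (3.64%) at an unadjusted p under 0.05, 59 of them among the 505 (11.7%). The 505 were chosen by a small p on these same arrays, so the shares among them are a description only. A count of 0 does not show that the genotypes, or the array numbers, had the same ABA effect. The smallest p between genotypes for a named gene was that of AT3G53980, at 1.76 and 1.39 in the wild-type pairs and -0.09 and -0.39 in abh1, followed by AT1G60590 and LUL1. Its mock signals were 140 and 169 in wild type and 796 and 1140 in abh1, and its ABA signals 499, 458, 749 and 865, so the genotypes differed more in mock than in ABA. AT1G60590 was at -0.89 and -0.80 in wild type and at 0.71 and 1.27 in abh1. GH3.3, which joins auxin to amino acids, averaged 0.19 ± 0.75. It was at 0.999 and 2.72 in the wild-type pairs and at -1.27 and -1.68 in the abh1 pairs. The difference between genotypes did not pass limma's test in any of these genes (adjusted p = 0.999954).

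Between the array numbers the smallest p belonged to AT2G37870, AT4G33905 and UGT85A2. AT2G37870, of the lipid transfer protein family, was raised by 2.28 ± 0.43 (adjusted p = 0.0274), made up of 3.78 in wild type and 3.07 in abh1 on the arrays numbered 1 and of 1.29 and 0.99 on those numbered 2. AT4G33905, with a mean mock signal under the filter, was raised by 1.70 ± 0.33, with 2.51 and 2.60 on the arrays numbered 1 and 0.98 and 0.72 on those numbered 2. In both genes the larger differences were on the arrays numbered 1 in either genotype, but the difference between the numbers did not pass (adjusted p = 0.999531).

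Some raised genes were neighbours on the chromosome. Of 2146 pairs of adjacent protein-coding genes with both members measured, 5 pairs were raised together. Of single genes tested 2.12% were raised, but that is not a rate for pairs. No rate for pairs was worked out, so the 5 are a description. With 1.07% lowered, lowered pairs would be too rare to read anything from their count of 0. The raised pairs were COR15B and COR15A, AT3G16990 and UBC32, AT3G57010 and AT3G57020, RALFL32 and AT4G14020, and AT4G30460 and AT4G30470. RALFL32, a small signalling peptide, rose by 1.75 ± 0.19 (adjusted p = 0.0036), and AT4G14020 by 1.05 ± 0.17. AT4G30460 and AT4G30470 rose by 1.82 and 1.85, with AT4G30490 close by at 1.16 ± 0.14. AT3G57010 and AT3G57020 are both strictosidine synthase-like; the second was bright in mock (291 to 1173) and its 4 pair differences ran from 0.60 to 1.70. Probe sets of such close relatives could share signal, which was not tested.

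Most called probe sets carry no gene name here: 198 raised and 79 lowered have none, and 6 raised have several. The unnamed probe set with the smallest p among the raised, 247925_at, went from a mock mean of 1052 ± 345 to an ABA mean of 4030 ± 813 (SD, n = 4), a rise of 1.96 ± 0.15. The next, 260357_at, rose by 3.10 ± 0.25. The leading unnamed falls were those of 259632_at, from 992 ± 207 to 364 ± 104 (-1.44 ± 0.13), and 256299_at, from 5523 ± 503 to 1722 ± 319 (-1.69 ± 0.16). In these 4 probe sets the ABA and mock arrays did not overlap.

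The number of calls rested on each array, and most of all on wild-type ABA replicate 2. Without it 3462 probe sets were called, 1180 raised and 2282 lowered, which included all 505. Leaving out another array gave fewer calls: for the arrays numbered 1, 81 with wild-type mock left out, 210 with wild-type ABA, 121 with abh1 mock and 173 with abh1 ABA left out, and for those numbered 2, 218 with wild-type mock, 174 with abh1 mock and 239 with abh1 ABA left out. With no replicate block 80 were called, 70 raised and 10 lowered, all among the 505. Falls outnumbered rises without wild-type ABA replicate 2 and within the arrays numbered 1 (1241 lowered, 715 raised) or within abh1 (515 lowered, 405 raised), so the larger number of rises in the average does not hold across all settings. With no replicate block the called genes named here outside the 32 that passed were PUB19, COR47, EXLB1, EXPA16, ALDH7B4, WSD1 and AT4G33150, and the others did not. Of the 32, those that did not pass were LEA4-5, AT4G30460, AT4G02360, AT3G57010, AT2G29320, AT5G59080, AT1G22690, AT1G06830, AT3G58610, AT5G55580, AT4G17390, AT2G37050 and ATSPS4F. Of the 32 named genes 32 passed without wild-type ABA replicate 2. With wild-type mock replicate 1 dropped 21 passed, and the 11 that did not were all among the 14 lowered genes. With no replicate block 19 passed. Every raised gene of the 32 passed with any single array left out, but of the lowered ones only TBL45, EXPA8 and AT3G16530 did. None of the 32 changed direction, which their choice for no overlap of ABA and mock arrays left little room for.

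**Figure D5:**
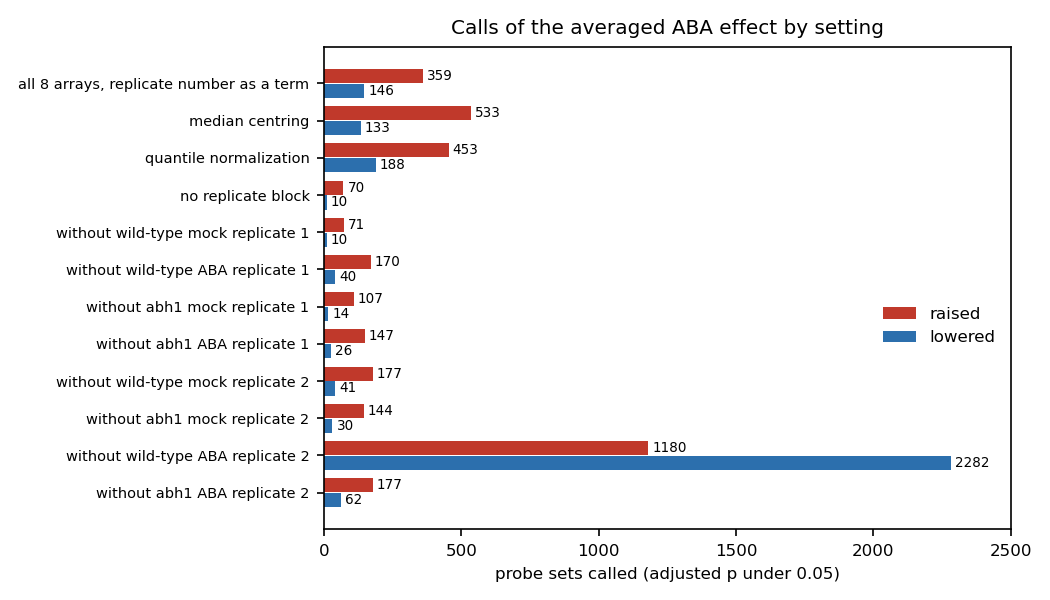
Number of probe sets called at an adjusted p under 0.05 with all 8 arrays (359 raised in red, 146 lowered in blue), under other scalings, with no replicate block, and without each array in turn. Without wild-type ABA replicate 2 the counts are 1180 raised and 2282 lowered; without any other single array they are at most 177 and 62.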

How the data were processed

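The authors deposited MAS5 intensities on a linear scale, made with Affymetrix Micro Array Suite, per the series' design text and the submitters' processing notes; its settings are not known here. The 8 arrays had a 2% trimmed mean of 500.0 to 500.1, so no further scaling was applied. Of 22810 probe sets, 64 AFFX controls were left out. A probe set was tested if its signal averaged over the 8 arrays reached the 40th percentile (115.5), which left 13648. limma 3.58.1 in R 4.3.3 fitted genotype, replicate number and ABA to log2(signal + 10), with 4 residual degrees of freedom and eBayes with an intensity trend. Tests were two-sided and adjusted by Benjamini-Hochberg over all 13648, with a threshold of 0.05. Precision is limited by how few arrays there are.

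The labels number the replicates but say nothing of a pairing. How far an array lay from its group mean correlated between arrays of the same number at 0.394 to 0.715 over 6 pairs of groups. That is above the level of 0.1 taken for a pairing. The replicate number was set as a term when the comparison was defined, so this correlation did not decide its place in the fit.

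Gene names came from the platform's annotation: of those tested, 7405 named 1 gene, 271 more than 1 and 5972 none. Where a gene had more than 1 probe set, the brightest stood for it. Named genes were called probe sets with 1 gene and no overlap of ABA and mock arrays, the 12 smallest p and the 8 largest changes in each direction, and list members. Comparison, members and the 44 lists were chosen with earlier results of these data known. After the annotation was read, 2 lists of organelle genes were added and 2 name patterns were corrected. No promoter sequence was used here.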

Additional observations from a re-analysis of the deposited data

Results flagged for a closer look

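In the 32 named genes, the 4 ABA and the 4 mock arrays were each searched for 1 array far from the rest. Of 64 sets in all, 4 were found. For 4 values drawn from 1 distribution the rate would be about 1 in 20. These sets mix 2 genotypes and 2 replicate numbers, in genes chosen for no overlap, so that rate need not hold for them. ZW9 on wild-type ABA replicate 1 had 8955, with the next array at 4838 (the gap was 0.835 of the range on the log2 scale). LTI30 on wild-type mock replicate 1 had 1111 against 763 (0.899). AT1G49450 on wild-type ABA replicate 2 had 329 against 259 (0.889). AT3G57010 on abh1 mock replicate 1 had 32.3 against 6.11 (0.874), where the other 3 mock arrays lay under their 10th percentile.

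Of 195 list members, 21 moved one way in both wild-type pairs and the opposite way in both abh1 pairs. That is 10.8%, beside 5.58% of all probe sets, and the shares were not tested against each other. The 21 include the chloroplast-encoded psbK, ycf4, ndhG, ndhH, petD, ndhJ, rpoC1, ndhK and ndhE, all higher with ABA in the abh1 pairs. The share therefore leans on that list and does not describe list members in general. The difference between the genotypes' ABA effects, abh1 minus wild type, was -3.33 for GH3.3, -1.20 for WRKY6 and 1.34 for BZIP61. For ndhH it was 2.05 and for ycf4 1.48. The difference did not pass limma's test for any of these genes (adjusted p = 0.999954).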

How the results depend on the processing

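The fit described above called 505 probe sets. The count was within 1.5 times of that with an offset of 1 or 50, a filter at the 60th percentile, median centring, quantile normalization, robust eBayes or no intensity trend (338 to 666). It was 262 with no filter on low signal, 80 with no replicate block, 316 with 4 group means and the replicate block, 15 with 4 group means and no replicate block, 253 with a log2 difference of at least 1 and 117 at an adjusted p under 0.01. Leaving out 1 array gave 81 to 3462. Within the arrays numbered 1 it was 1956, and within those numbered 2 it was 0 by limma, with 811 at an unadjusted p under 0.05. It was 159 within wild type and 920 within abh1. These last 4 fits have 1 residual degree of freedom. The causes were not tested; with no filter more probe sets share the adjustment. Median centring moved the median of all probe sets by 0.14 to 0.06, so differences under that size have no settled sign. The genotype interaction had 0 calls by limma in all 12 settings run, with 38 to 1900 at an unadjusted p under 0.05. The replicate number interaction had 0 to 55, with 55 without abh1 ABA replicate 2. None of the 32 genes named by rank changed direction in any setting. They were chosen for no overlap of ABA and mock arrays, which left little room for such a change. List members outside the 32 are not covered by that.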
